A study of Homo sapiens with 12 samples.

Results

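The genes described here encode the subunits of integrins and laminins, followed in U2OS cells under 2 treatments that activate p53. They were chosen by symbol: *ITGA* or *ITGB* plus a number or 1 of the letters D, E, L, M, V and X, or *LAMA*, *LAMB* or *LAMC* plus a number, without antisense genes, pseudogenes and *ITGBL1*. Each gene was read through the probe set, a group of short probes on the array, that was assigned to that gene alone and had the highest mean over all arrays. This gave 34 genes, 24 integrin and 10 laminin subunits, of 19775 genes with such a probe set. *ITGB6* had only probe sets that were assigned to more than 1 gene and was not analysed here.

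U2OS is an established human osteosarcoma line with intact p53. RNA of whole cultures was measured on 12 Affymetrix arrays, 3 in each of 4 groups. Doxorubicin, an anthracycline that poisons topoisomerase and breaks DNA, was given at 0.6 µg/ml for 24 hours, and its control was cells with no treatment. Nutlin-3, which frees p53 from its inhibitor MDM2 without breaking DNA, was given at 10 µM for 24 hours, and its control was cells in 0.1% DMSO, the solvent. No allele, transgene or knockdown is named for any group, and all 4 groups are the same line. Nothing in the labels tells whether replicates came from separate cultures, and p-values therefore reflect no more than the scatter among these arrays, which may be technical.

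Integrins are heterodimers of an alpha and a beta chain that cross the cell membrane and tie the surrounding matrix to the actin skeleton. Laminins are trimers of an alpha, a beta and a gamma chain and form the sheet of the basement membrane. *ITGA3*, *ITGA6* and *ITGA7* encode laminin-binding alpha chains, *ITGA2*, *ITGA10* and *ITGA11* collagen-binding ones, and *ITGA5* and *ITGAV* chains that read short motifs in fibronectin, vitronectin and related proteins.

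With nutlin-3 the largest rise of a member was that of *ITGA2*, and 2 laminin-binding alpha chains, *ITGA3* and *ITGA6*, the beta chains *ITGB2* and *ITGB5*, and the laminin chains *LAMA1*, *LAMB1* and *LAMB3* rose as well, while *LAMA5* and *ITGB8* fell. With doxorubicin *LAMA5* fell most and *ITGB2* rose most. Of the 34 genes, 28 passed a filter on dim signals (19 integrin and 9 laminin subunits), and those 28 were tested among 13673 genes. A gene is called here where limma's moderated test gave an adjusted p under 0.05, with Benjamini-Hochberg adjustment over all genes tested. Changes are given as the difference of log2(signal + 16), which understates the change of dim genes.

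With doxorubicin 12 of the 28 were called, 9 higher and 3 lower, and the percentage called among all genes was 55.7% (30.1% higher and 25.6% lower). With nutlin-3 10 of the 28 were called, 8 higher and 2 lower, against 26.4% of all genes (12.5% higher and 13.9% lower). The median change of the 28 was 0.29 with doxorubicin, where that of all genes was 0.08, and 0.03 with nutlin-3, where that of all genes was 0.01. A change of at least 2-fold was called for 2 members with doxorubicin (16.5% of all genes) and for 4 with nutlin-3 (4.54% of all genes). Both treatments share no array, and 9 of the 28 were called with both, each in the same direction. Of all genes tested, 15.7% were called in the same direction with both and 3.61% in opposite directions. In RNA of whole cultures, fewer cells of a type and less RNA per cell cannot be told apart.

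**Figure D1:**
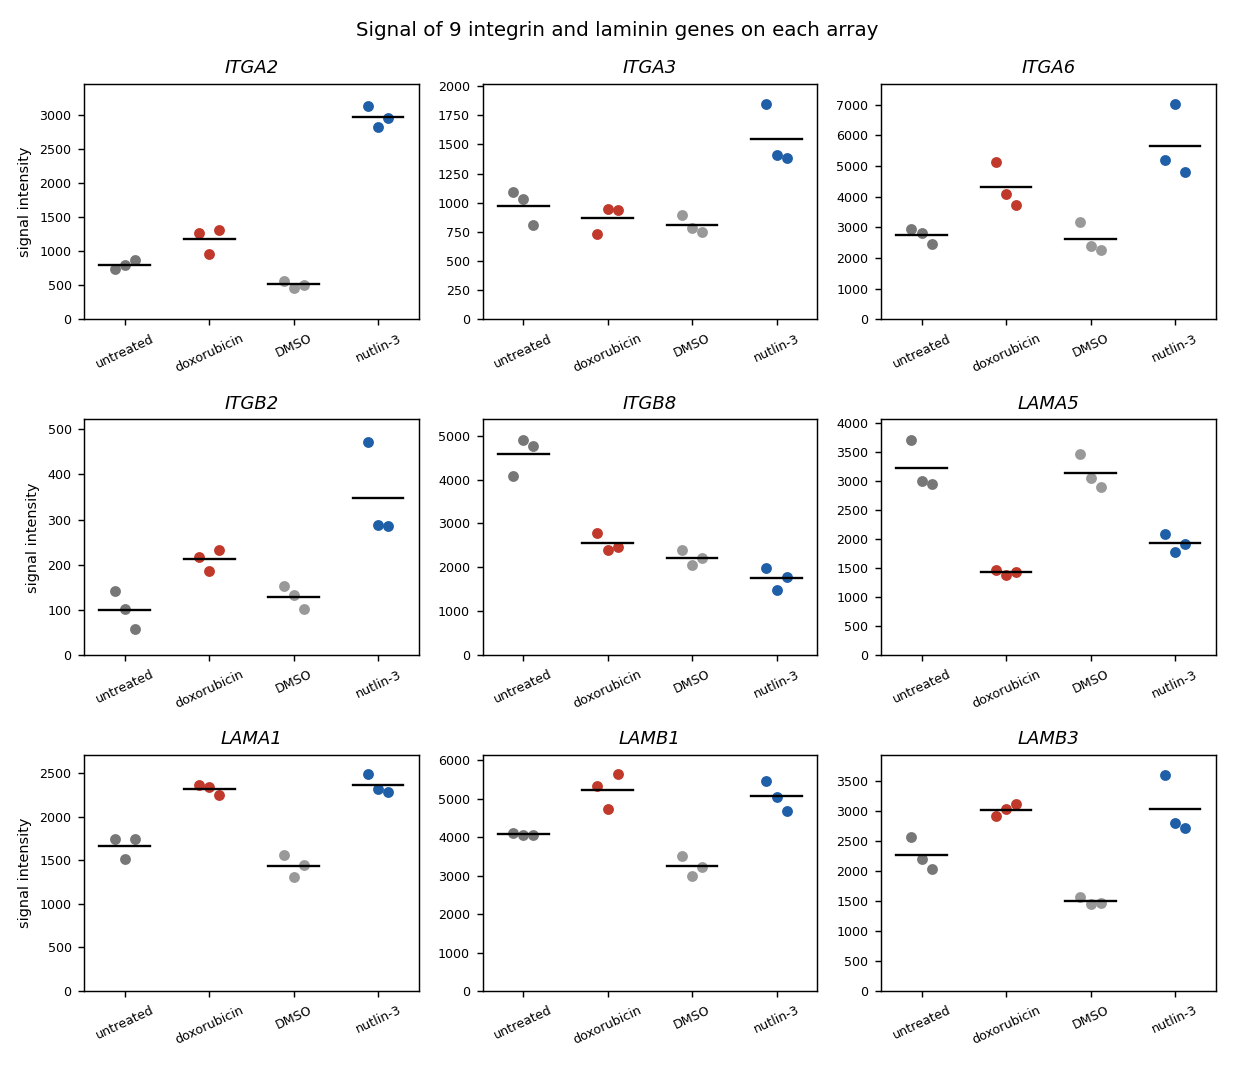
Signal intensity (linear axis from 0) of 9 genes on each array, by group. Each point is 1 of the 3 arrays of a group and the bar is their mean. *ITGA2* lies between 2819.9 and 3134 in nutlin-3 and at 1318 or less elsewhere, *LAMA5* is lower in both treatments than in both controls, and *ITGB8* is lower in DMSO than in untreated cells.

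The arrays had been scaled to a common mean by their makers, with trimmed means of 500.06 or 500.07 and medians between 79.61 and 113.6. Correlations of log2 values were 0.98 to 0.991 within groups and 0.906 to 0.98 between groups. The labelled cell type showed in *COL1A1*, *SPARC*, *RUNX2* and *MSX2*, 4 of the 10 osteoblast markers, while *SP7*, *ALPL*, *COL1A2* and *IBSP* lay under the filter. The doxorubicin arrays stood apart in RNA quality: the ratio of 3' to 5' signal of *ACTB* was 3.12 ± 0.577 (SD, n = 3) there, 1.53 ± 0.0754 in untreated cells, 1.28 ± 0.0281 in DMSO and 1.31 ± 0.0260 in nutlin-3. For the added control transcript dap the ratio was 7.67 ± 3.85 with doxorubicin (3.76, 7.79 and 11.5) and between 2.49 and 3.27 on the other 9 arrays. Its part in the changes with doxorubicin was not tested. Without doxorubicin array 3, which had the highest ratio, 11 members were called. Centring each array on its median in place of the makers' scaling moved the median change of all genes with doxorubicin from 0.08 to -0.10, and that of DMSO against untreated from 0.02 to 0.15. The share of calls that were higher then went from 54.0% to 38.4% with doxorubicin, from 55.3% to 39.6% for the difference of the responses and from 57.7% to 80.3% for DMSO.

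Promoter sequence is shown for 4 genes whose changes lead the results and which have an entry in RefSeq's promoters (build GRCh38.p14), each as the 250 bases before the gene's farthest upstream start. They are *LAMA5*, which fell most with doxorubicin (chr20:62367313-62367562, minus strand), and *ITGA2* (chr5:52989102-52989351, plus strand), *ITGA6* (chr2:172427086-172427335, plus strand) and *LAMB3* (chr1:209652426-209652675, minus strand), which rose with both treatments. Each is written 5′ to 3′ on the gene's strand. Capitals mark the GC box GGGCGG, the TATA motif TATAAA and the E box CACGTG on either strand.
LAMA5: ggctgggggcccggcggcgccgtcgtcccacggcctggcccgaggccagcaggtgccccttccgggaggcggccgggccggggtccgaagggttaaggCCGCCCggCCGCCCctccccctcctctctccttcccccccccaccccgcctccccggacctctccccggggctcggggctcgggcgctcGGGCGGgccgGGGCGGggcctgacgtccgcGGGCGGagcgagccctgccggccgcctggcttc
ITGA2: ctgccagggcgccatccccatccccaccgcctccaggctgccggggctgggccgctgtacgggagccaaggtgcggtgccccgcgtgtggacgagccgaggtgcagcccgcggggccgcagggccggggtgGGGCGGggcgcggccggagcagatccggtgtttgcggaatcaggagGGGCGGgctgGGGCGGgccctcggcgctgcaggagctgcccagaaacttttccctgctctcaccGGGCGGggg
ITGA6: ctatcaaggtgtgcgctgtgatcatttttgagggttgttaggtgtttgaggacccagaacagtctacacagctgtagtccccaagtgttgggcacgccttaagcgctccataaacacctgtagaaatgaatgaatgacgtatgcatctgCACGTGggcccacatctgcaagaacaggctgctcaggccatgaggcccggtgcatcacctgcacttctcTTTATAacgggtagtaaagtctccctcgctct
LAMB3: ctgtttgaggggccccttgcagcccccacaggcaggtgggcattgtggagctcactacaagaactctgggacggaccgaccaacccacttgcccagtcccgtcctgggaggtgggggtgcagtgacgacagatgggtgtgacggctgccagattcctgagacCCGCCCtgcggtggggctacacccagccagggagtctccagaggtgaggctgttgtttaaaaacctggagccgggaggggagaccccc

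The *LAMA5* and *ITGA2* windows are rich in G and C (82.8% and 76.4%) and hold 5 and 4 GC boxes, and the *LAMB3* window shown (64% G and C) holds 1. The *ITGA6* window shown (50.8%) holds a TATA motif at -32 to -27 and an E box at -101 to -96, counted in bases from the start. Another start of *ITGA6*, not shown, has a window of 71.6% G and C with GC boxes at -217 to -212, -106 to -101 and -55 to -50. Of the 34 genes, 23 had entries, with 30 distinct windows. A GC box lay in 16 of the 30, where 42.6% of all 34788 windows of this length held one. CCAAT lay in 4 of 30 (32% of all windows), TATAAA in 2 (10.8%), CACGTG in 1 (6.31%), the TEAD motif CATTCC in 4 (11.9%) and the AP-1 motif TGACTCA in 1, at another start of *LAMB3* (4.21%). The p53 half-site lay in 0 of 30 (5.59% of all windows). Both strands were searched, and a match is a description of letters and not of binding.

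Among the collagen-binding alpha chains, *ITGA2* encodes the chain that pairs with *ITGB1* as the platelet and epithelial collagen receptor. Its signal was 736, 805 and 871 in untreated cells, 1268, 957 and 1318 with doxorubicin, 560, 467 and 511 in DMSO, and 3134, 2819.9 and 2964 in nutlin-3. The 3 nutlin-3 arrays lay far above all others, the doxorubicin arrays lay above the untreated ones with no overlap, and the DMSO arrays were the lowest. The log2 change was 2.50 (SE 0.12, adjusted p = 2.7e-10) with nutlin-3 and 0.54 (SE 0.12, adjusted p = 0.0010) with doxorubicin. The doxorubicin response was the smaller, with a difference of -1.97 (SE 0.17, adjusted p = 1.8e-07). Doxorubicin set directly against nutlin-3, which compares levels and not responses, gave -1.33 (adjusted p = 8.4e-08). A second *ITGA2* probe set gave 2.53 and 0.59. Neither of the other collagen-binding chains was called: *ITGA10*, known from cartilage, changed by 0.32 with doxorubicin and 0.01 with nutlin-3, and *ITGA11*, known from fibroblasts, by 0.91 (SE 0.53) and -0.35. The *ITGA11* signals ran from 10.8 to 166 and its groups overlapped, and its difference of responses was called only without DMSO array 2 (1.83, adjusted p = 0.048).

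Among the laminin-binding alpha chains, *ITGA6*, which pairs with *ITGB1* or *ITGB4*, had signals of 2944, 2824 and 2462 in untreated cells, 5139, 4083 and 3721 with doxorubicin, 3169, 2407 and 2249 in DMSO, and 5181, 7009.6 and 4795 in nutlin-3. Both treated groups lay above their controls with no overlap. The change was 0.64 (SE 0.15, adjusted p = 0.0016) with doxorubicin and 1.11 (SE 0.15, adjusted p = 2.7e-05) with nutlin-3. The difference of the responses, -0.47 (SE 0.21, adjusted p = 0.093), was not called with all arrays. It was called when doxorubicin array 1 (-0.60, adjusted p = 0.035), DMSO array 1 (-0.62, adjusted p = 0.027) or nutlin-3 array 3 (-0.58, adjusted p = 0.050) was left out. A second *ITGA6* probe set gave 0.33 with doxorubicin (adjusted p = 0.051) and 0.92 with nutlin-3 (adjusted p = 8.0e-05). Its difference was called (-0.59, adjusted p = 0.024).

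*ITGA3*, whose product with *ITGB1* is a main receptor for laminins of epithelial basement membranes, had signals of 1092, 1028 and 806 in untreated cells, 729, 949 and 938 with doxorubicin, 898, 781 and 748 in DMSO, and 1851, 1407 and 1381 in nutlin-3. The nutlin-3 arrays stood above every other array and the other 3 groups overlapped. It rose by 0.91 with nutlin-3 (SE 0.14, adjusted p = 1.1e-04) and was not called with doxorubicin (-0.16, SE 0.14, adjusted p = 0.36), and the difference between both responses was -1.07 (SE 0.20, adjusted p = 4.6e-04). *ITGA3* was the 1 member called with nutlin-3 alone. *ITGA7*, the laminin receptor chain of muscle, changed by 0.30 and -0.01 and was not called, but its second probe set was higher with doxorubicin (0.88, adjusted p = 3.0e-04, over 26393 probe sets). Without untreated array 1 the *ITGA7* probe set used was called as well (0.42, adjusted p = 0.042).

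Among the chains for fibronectin and vitronectin, *ITGAV*, the common partner of several beta chains, had a mean signal of 10603 ± 156 in untreated cells, 13677 ± 640 with doxorubicin, 9860.4 ± 916 in DMSO and 10281 ± 994 in nutlin-3 (SD, n = 3). All 3 doxorubicin arrays lay above the untreated ones. It rose by 0.37 with doxorubicin (SE 0.09, adjusted p = 0.0015) and the change with nutlin-3 was 0.06 (adjusted p = 0.67). The difference of 0.31 was not called with all arrays (adjusted p = 0.054), but was without DMSO array 2 (0.37, adjusted p = 0.027) or nutlin-3 array 1 (0.38, adjusted p = 0.017). *ITGA5*, the fibronectin receptor chain, stayed within 364 to 504 on all 12 arrays, with changes of -0.15 and -0.03, neither called. *ITGA4*, which binds fibronectin and VCAM, changed by 0.25 and -0.41, and *ITGA9*, which binds tenascin and osteopontin, by 0.59 and 0.00, with no call. The *ITGA4* difference of the responses was called only without DMSO array 2 (0.87, adjusted p = 0.040).

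The alpha chains known from leukocytes were mostly dim. *ITGAE*, which pairs with *ITGB7* on lymphocytes of the gut lining, was the bright one: 3336 ± 227 in untreated cells, 2141 ± 133 with doxorubicin, 3321 ± 192 in DMSO and 2847 ± 356 in nutlin-3 (SD, n = 3). It fell by 0.64 with doxorubicin (SE 0.10, adjusted p = 2.5e-05), with all 3 arrays below the untreated ones. The change with nutlin-3 was -0.23 (adjusted p = 0.095), which became -0.32 with an adjusted p of 0.026 without nutlin-3 array 3. The difference of the responses was -0.41 (SE 0.14, adjusted p = 0.024), and it was lost without untreated array 3, doxorubicin array 2, DMSO array 1 or nutlin-3 array 3, with values from -0.38 to -0.31. *ITGAM* and *ITGAX*, the alpha chains of the complement receptors, changed by 0.01 and 0.05 and by 0.58 and 0.64, and neither was called. *ITGAX* signals lay between 25.2 and 101, and it was called with doxorubicin without untreated array 1 (0.83, adjusted p = 0.046) or doxorubicin array 1 (0.81, adjusted p = 0.048).

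*ITGB2* encodes the beta chain of the leukocyte integrins. Its signal was 142, 103 and 57.5 in untreated cells, 217, 186 and 234 with doxorubicin, 153, 132 and 102 in DMSO, and 471, 289 and 286 in nutlin-3. Both treated groups lay above both control groups. It rose by 1.03 with doxorubicin (SE 0.26, adjusted p = 0.0026) and 1.31 with nutlin-3 (SE 0.26, adjusted p = 0.0010), but its other probe set past the filter gave -0.01 (adjusted p = 0.99) and 0.72 (adjusted p = 0.22). The summed signal of 9 leukocyte markers went from 441 to 478 in untreated cells to 901 to 1114 with doxorubicin, and from 310 to 427 in DMSO to 491 to 642 in nutlin-3. Of the 5 markers tested, 1 was called, *LAPTM5*, a lysosomal protein of leukocytes, with both treatments. It rose by 2.35 and 1.84, from a mean signal of 85.1 to 509 with doxorubicin and from 60.8 to 258 with nutlin-3. The others were not called: *CD53* changed by 0.63 and 0.00, *CD2* by 0.29 and 0.15, *CD3E* by 0.56 and 0.16 and *CSF1R* by -0.03 and -0.63. *PTPRC*, *CD14*, *SPI1* and *TYROBP* were under the filter in the mean of all arrays, and none was listed at 0. The part of these markers in the *ITGB2* result was not tested.

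The other beta chains moved less or downward. *ITGB1*, the partner of most of the alpha chains named here, had signals between 25880 and 35597 on its brightest probe set, with changes of 0.04 and 0.06 and no call. Its other probe sets past the filter fell with doxorubicin, by 0.75 (adjusted p = 1.7e-04) and 0.49 (adjusted p = 0.0043), and gave 0.11 and 0.10 with nutlin-3. *ITGB5*, a partner of *ITGAV*, rose by 0.29 with both treatments (SE 0.08, adjusted p = 0.0075 with doxorubicin and 0.018 with nutlin-3). The nutlin-3 call was lost without DMSO array 2 (0.25), DMSO array 3 (0.27) or nutlin-3 array 1 (0.21). The other *ITGB5* probe sets past the filter gave 0.72 (adjusted p = 0.022), 0.43 (adjusted p = 0.071) and -0.08 (adjusted p = 0.79) with doxorubicin. With nutlin-3 they gave 0.29 to 0.35, and none was called (adjusted p from 0.32 to 0.39). *ITGB3*, the vitronectin receptor chain of platelets and osteoclasts, changed by -0.16 and -0.76, and *ITGB4*, the hemidesmosome chain, by -0.00 and -0.44, with no call. *ITGB3* was called with nutlin-3 without nutlin-3 array 3 (-1.06, adjusted p = 0.029). Without DMSO array 2, *ITGB4* was called with nutlin-3 (-0.68, adjusted p = 0.010) and for the difference (0.68, adjusted p = 0.034).

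*ITGB8*, a partner of *ITGAV* that takes part in the release of latent TGF-beta, differed most between the controls. Its signal was 4076, 4893 and 4774 in untreated cells, 2778, 2399 and 2466 with doxorubicin, 2393, 2055 and 2203 in DMSO, and 1994, 1486 and 1771 in nutlin-3. All untreated arrays lay above all others, and the doxorubicin and DMSO arrays almost met. It was 1.04 lower in DMSO than in untreated cells (-1.04, SE 0.11, adjusted p = 1.9e-05). It fell by 0.84 with doxorubicin against untreated (SE 0.11, adjusted p = 5.2e-06). Against the DMSO arrays the change was 0.20 and not called (adjusted p = 0.13), so the fall with doxorubicin depends on the control. It fell by 0.35 with nutlin-3 (SE 0.11, adjusted p = 0.027), a call lost without DMSO array 1 (-0.29), DMSO array 3 (-0.35), nutlin-3 array 2 (-0.23) or nutlin-3 array 3 (-0.36). The difference of the responses was -0.50 (adjusted p = 0.018), but doxorubicin set directly against nutlin-3 gave 0.54 (adjusted p = 4.5e-04), which compares levels and not responses.

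**Figure D2:**
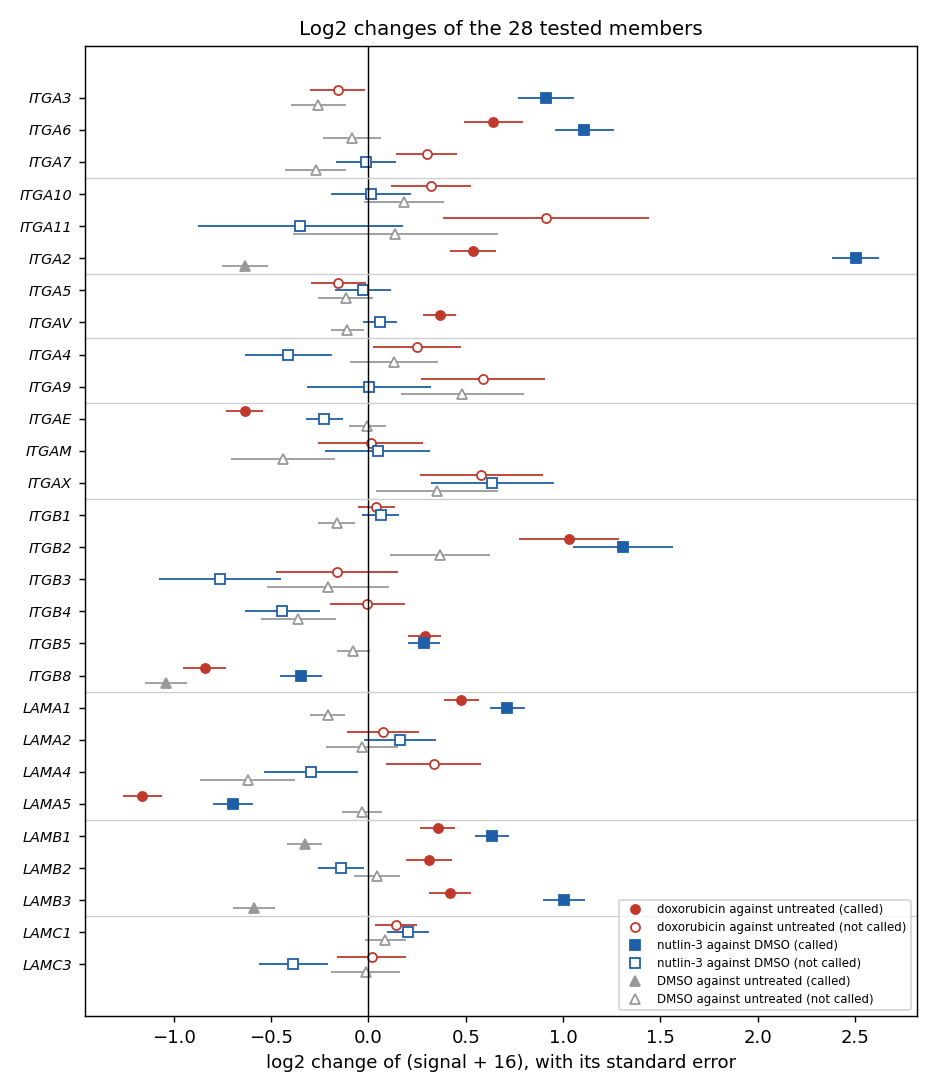
Log2 change of each of the 28 tested genes with its standard error (3 arrays a group), by kind of chain from the laminin-binding alpha chains at the top to the laminin gamma chains. Circles are doxorubicin against untreated, squares nutlin-3 against DMSO, triangles DMSO against untreated, and filled marks were called. *ITGA2* in nutlin-3 stands out at 2.50, *LAMA5* lies left of 0 in both treatments, and the *ITGB8* triangle lies at -1.04.

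Of the laminin alpha chains, *LAMA5*, the chain of most adult basement membranes, had signals of 3715, 2997 and 2958 in untreated cells, 1468, 1377 and 1433 with doxorubicin, 3464 (array 1), 3060.5 and 2892 in DMSO, and 2096, 1774 and 1917 in nutlin-3. The controls overlapped, both treated groups lay below them, and doxorubicin was the lowest with no overlap. It fell by 1.16 with doxorubicin (SE 0.10, adjusted p = 5.3e-08) and by 0.70 with nutlin-3 (SE 0.10, adjusted p = 5.7e-05). The difference of -0.46 (SE 0.14, adjusted p = 0.017) was lost without DMSO array 3 (-0.41, adjusted p = 0.051).

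*LAMA1*, the alpha chain of the early embryo's laminin, rose where *LAMA5* fell. Its signals were 1513 to 1743 in untreated cells, 2249 to 2359 with doxorubicin, 1312 to 1563 in DMSO and 2284 to 2493 in nutlin-3, so each treated group lay above its control. It rose by 0.48 with doxorubicin (SE 0.09, adjusted p = 2.3e-04) and 0.71 with nutlin-3 (SE 0.09, adjusted p = 1.1e-05). *LAMA2*, the muscle chain, changed by 0.07 and 0.16 and *LAMA4*, known from vessel walls, by 0.33 and -0.29, with no call. Against the DMSO arrays *LAMA4* was 0.95 higher with doxorubicin (adjusted p = 0.0028). The summed signal of 5 endothelial markers was 308 to 333 in untreated cells, 328 to 451 with doxorubicin, 190.0 to 215 in DMSO and 216 to 279 in nutlin-3. Of these markers *CDH5*, *VWF* and *KDR* were under the filter. *PECAM1* (0.21 with doxorubicin and 0.25 with nutlin-3) and *TEK* (0.43 and 0.05) were not called. The part of this sum in the *LAMA4* values was not tested.

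Of the laminin beta chains, *LAMB3*, the beta chain of the laminin that anchors the epidermis, had signals of 2559.9, 2190.2 and 2035 in untreated cells, 2910.2, 3022 and 3114 with doxorubicin, 1571, 1442 and 1467 in DMSO, and 3589.9, 2789 and 2716 in nutlin-3. The DMSO arrays were the lowest, and both treated groups reached about the same level. It rose by 0.42 with doxorubicin (SE 0.11, adjusted p = 0.0033) and 1.00 with nutlin-3 (SE 0.11, adjusted p = 2.1e-06), with a difference of -0.58 (SE 0.15, adjusted p = 0.0059). Doxorubicin set directly against nutlin-3 gave 0.00 (adjusted p = 0.98). The summed signal of 6 epithelial markers was 27712 to 28991 in untreated cells, 19768 to 24634 with doxorubicin, 20525 to 21175 in DMSO and 26029 to 27499 in nutlin-3. Most of this sum is *KRT18* and *KRT8*, and the list went both ways. With nutlin-3 *KRT18* (0.48) and *KRT8* (0.27) rose and *EPCAM* fell (-0.68, adjusted p = 8.6e-05), while *KRT14* (-0.10) and *CDH1* (0.39) were not called. With doxorubicin *KRT14* (-1.66), *KRT18* (-0.49) and *EPCAM* (-0.31) fell and none of the 5 tested rose. The controls differed as well, with 4 of the 5 called lower in DMSO than in untreated cells (5.98% of all genes). These were *KRT14* (-1.79), *EPCAM* (-0.68), *KRT18* (-0.47) and *KRT8* (-0.30). The part of these markers in the *LAMB3* result was not tested.

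*LAMB1*, the beta chain of the most widespread laminins, had mean signals of 4076 ± 32.2 in untreated cells, 5234 ± 471 with doxorubicin, 3250.5 ± 255 in DMSO and 5060.2 ± 393 in nutlin-3 (SD, n = 3). It rose by 0.36 with doxorubicin (SE 0.09, adjusted p = 0.0024) and 0.64 with nutlin-3 (SE 0.09, adjusted p = 3.2e-05). The difference of -0.28 (adjusted p = 0.085) was called only without doxorubicin array 3 (-0.34, adjusted p = 0.046). A second *LAMB1* probe set gave 0.27 with doxorubicin (adjusted p = 0.059) and 0.57 with nutlin-3 (adjusted p = 0.0015). *LAMB2*, the beta chain of kidney and nerve-muscle basement membranes, rose by 0.31 with doxorubicin (SE 0.12, adjusted p = 0.034), with signals of 769 to 797 in untreated cells and 958 to 988 with doxorubicin. That call was lost when any 1 of those 6 arrays was left out (adjusted p from 0.055 to 0.081). The *LAMB2* change with nutlin-3 was -0.14 (-0.30, adjusted p = 0.035, without nutlin-3 array 1). Its difference of 0.45 (adjusted p = 0.040) held without nutlin-3 array 1 and was lost without any 1 of the other arrays (0.34 to 0.47).

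The gamma chain *LAMC1*, shared by most laminins, changed by 0.14 and 0.20 and was not called, while its other probe set was higher with both treatments (0.39, adjusted p = 0.0023, and 0.40, adjusted p = 0.0052). *LAMC3* changed by 0.02 and -0.38 with no call. The chains under the filter were *ITGA1*, *ITGA8*, *ITGAD*, *ITGAL*, *ITGB7* and *LAMB4*. Their signals lay between 2.10 and 101 on all 12 arrays, and no change is given for them. *ITGA2B*, the platelet chain whose symbol the selection does not take, had mean signals of 64.5 ± 29.8, 121 ± 32.1, 62.4 ± 8.22 and 93.5 ± 18.8 in untreated, doxorubicin, DMSO and nutlin-3 arrays (SD, n = 3). Its change was 0.80 with doxorubicin (SE 0.29, adjusted p = 0.027) and 0.47 with nutlin-3 (adjusted p = 0.26). The summed signal of 4 platelet markers was 146 to 209 in untreated cells, 242 to 358 with doxorubicin, 107 to 174 in DMSO and 85.3 to 186 in nutlin-3. Of these markers *PF4*, *PPBP* and *GP9* were under the filter, and *GP1BA* was not called (0.10 with doxorubicin and 0.19 with nutlin-3). The part of this sum in the *ITGA2B* values was not tested.

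**Figure D3:**
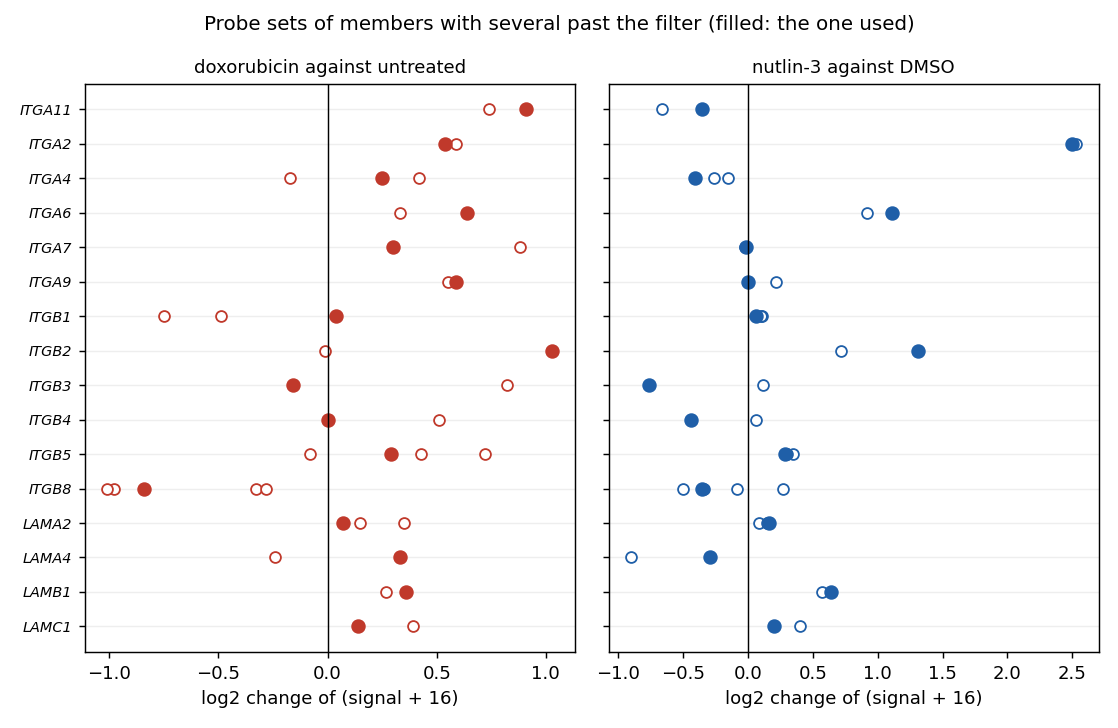
Log2 change of every probe set past the filter for the 16 genes that had more than 1, with doxorubicin (left) and nutlin-3 (right). Filled points are the probe sets used, open points the others. The *ITGB1* points spread from -0.75 to 0.04 with doxorubicin and lie close together with nutlin-3, and both *ITGA2* points lie near 2.5 in nutlin-3.

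The 34 genes had 91 single-gene probe sets, of which 52 passed the filter, and 16 genes had more than 1. With limma's test over 26393 probe sets, 0 of the 16 had calls in opposite directions in any comparison. The array cannot tell a change in transcript amount from one in transcript form, and probe sets of *ITGB1*, *ITGB2* and *ITGB5* gave different values. The *ITGB1* values spread with doxorubicin (-0.75 to 0.04) and lay close together with nutlin-3 (0.06 to 0.11). The doxorubicin arrays also had the higher 3' to 5' ratios, and the part of RNA quality in this spread was not tested. The 5 probe sets of *ITGB8* gave -1.01 to -0.28 with doxorubicin and -0.50 to 0.27 with nutlin-3.

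The scaling of the arrays bears on the smaller rises with doxorubicin. With each array centred on its median, 7 of the 28 were called with doxorubicin, 4 higher and 3 lower, against 52.1% of all genes (20.0% higher and 32.1% lower). *ITGAV* (0.19), *ITGB5* (0.11), *LAMB1* (0.18), *LAMB2* (0.13) and *LAMB3* (0.24) were no longer called, relative to a median of all genes of -0.10. With nutlin-3 the same centring ended the calls of *ITGB5* (0.26, adjusted p = 0.092) and *ITGB8* (-0.37, adjusted p = 0.052).

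The groups did not overlap for 10 members that were higher with doxorubicin (32.4% of all genes) and 3 that were lower (26.5%), and for 9 that were higher (21.2%) and 3 that were lower (21.9%) with nutlin-3. The 3 genes called with doxorubicin and not with nutlin-3 were *ITGAE*, *ITGAV* and *LAMB2*. The test of the difference of the responses called 7 members, 1 higher and 6 lower, against 39.5% of all genes (21.8% higher and 17.7% lower). They were *ITGA2*, *ITGA3*, *LAMB3*, *ITGB8*, *LAMA5*, *ITGAE* and, with a higher doxorubicin response, *LAMB2*. A difference of at least 2-fold was called for 2 of them, *ITGA2* and *ITGA3* (13.4% of all genes). With single arrays left out the count ran from 5 to 10, and the members that left or joined are named beside their values.

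DMSO against untreated shares its arrays with the other comparisons, so its values are given for themselves. Here 4 of the 28 were called, 0 higher and 4 lower, against 14.1% of all genes (8.14% higher and 5.98% lower). At an unadjusted p under 0.05 limma's test gave 0 higher and 6 lower. The 4 were *ITGB8*, *ITGA2* (-0.63, SE 0.12, adjusted p = 0.0021), *LAMB3* (-0.59, SE 0.11, adjusted p = 0.0018) and *LAMB1* (-0.33, SE 0.09, adjusted p = 0.020). A change of at least 2-fold was called for 1 of them, *ITGB8* (1.12% of all genes). The *LAMB1* call was lost without untreated array 1 or 2 or DMSO array 2 or 3 (-0.33 to -0.27), and with arrays centred on their medians (-0.21, adjusted p = 0.27). The groups did not overlap for 0 members that were higher (18.7% of all genes) and 6 that were lower (14.8%). The median change of the 28 was -0.10, and that of all genes 0.02.

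The genes that work beside integrins and laminins were followed in 5 lists. Of 25 tested activators and focal adhesion adaptors, which switch integrins on and tie them to actin, 2 rose and 9 fell with doxorubicin (median -0.19), where 30.1% of all genes rose and 25.6% fell. With nutlin-3 4 rose and 2 fell (median -0.05), where 12.5% of all genes rose and 13.9% fell. Against the DMSO arrays 4 rose with doxorubicin, and with arrays centred on their medians 1 did. *FERMT1*, a kindlin that activates integrins, rose by 1.05 (SE 0.12) with doxorubicin and 0.72 (SE 0.12) with nutlin-3. The actin cross-linker *ACTN1* rose by 0.38 and 0.28. The tensin *TNS3* fell by 1.49 (SE 0.08) and 1.01 (SE 0.08). *TGFB1I1*, a paxillin relative, fell by 1.41 with doxorubicin and changed by 0.01 with nutlin-3, with a difference of -1.42 (adjusted p = 1.9e-05). *PXN*, paxillin itself, rose by 0.75 with nutlin-3 and *FERMT2*, another kindlin, fell by 0.50. Of these named genes, *PXN* (-0.56) and *TNS3* (-0.36) were called lower and *FERMT2* (0.24) higher in DMSO than in untreated cells.

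Of 12 tested adhesion kinases and exchange factors, 1 rose and 2 fell with doxorubicin (median -0.01), against 30.1% and 25.6% of all genes. Without untreated array 3, 2 rose. Against the DMSO arrays 3 rose and 4 fell, and with arrays centred on their medians 4 fell. *SRC* rose by 1.31 (SE 0.16), and *DOCK1*, an activator of RAC, and *PTK2*, the focal adhesion kinase, fell by 1.49 (SE 0.17) and 0.90 (SE 0.10). With nutlin-3 limma's test called 0 of the 12, and 0 had an unadjusted p under 0.05 (median 0.04), where 12.5% of all genes rose and 13.9% fell. The differences of both responses were 1.26 for *SRC* (adjusted p = 3.5e-04), -1.53 for *DOCK1* (adjusted p = 8.6e-05) and -1.01 for *PTK2* (adjusted p = 4.5e-05).

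Of 9 tested partners of laminin in the basement membrane, 6 rose and 1 fell with doxorubicin (median 0.74), against 30.1% and 25.6% of all genes. With nutlin-3 limma's test called 0 higher and 1 lower (median 0.01), against 12.5% and 13.9% of all genes, and at an unadjusted p under 0.05 it gave 1 higher and 3 lower. With nutlin-3 1 was called higher without DMSO array 1, and 2 lower without doxorubicin array 2 or nutlin-3 array 3. *NTN4*, a netrin that binds laminin, rose by 2.12 (SE 0.10) with doxorubicin, from 720.1 ± 23.4 to 3208 ± 375 (SD, n = 3), and was 1.00 higher in DMSO than in untreated cells. *NID2*, a nidogen that links laminin to collagen, rose by 1.35 (SE 0.29) from a low signal of 68.2 ± 16.02 (SD, n = 3). *PXDN*, the peroxidase that cross-links basement membrane collagen, fell by 0.80. With nutlin-3 *FBLN1*, a fibulin, fell by 0.81 (SE 0.11). The responses differed for *NTN4* by 2.35 (adjusted p = 3.9e-09) and for *NID2* by 1.92 (adjusted p = 0.0012).

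Of 14 tested other laminin receptors, tetraspanins and hemidesmosome genes, 4 rose and 5 fell with each treatment (medians 0.11 and 0.04). The shares of all genes were 30.1% higher and 25.6% lower with doxorubicin and 12.5% and 13.9% with nutlin-3. The tetraspanin *CD82* rose by 2.17 with doxorubicin and 2.20 with nutlin-3 (SE 0.17). The syndecans, proteoglycans that bind laminin through their sugar chains, went both ways: *SDC1* rose by 1.33 and 0.79, *SDC4* by 1.24 and 1.01, and *SDC2* fell by 1.47 and 1.45. Both *CD82* (-0.72) and *SDC1* (-0.71) were called lower in DMSO than in untreated cells. The mean *SDC1* signal was 3708 in untreated cells, 2239 in DMSO and 3905 in nutlin-3. *CD151*, the tetraspanin that binds laminin-binding integrins, fell by 0.80 with doxorubicin and changed by -0.22 with nutlin-3, and *SGCE* fell by 0.52 with nutlin-3.

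Of 12 tested matrix ligands of integrins outside the collagens, 3 rose and 6 fell with doxorubicin (median -0.25), against 30.1% and 25.6% of all genes, and against the DMSO arrays 3 fell. With nutlin-3 3 rose and 1 fell (median 0.16), against 12.5% and 13.9% of all genes. *MFGE8*, a bridging protein for *ITGAV* integrins, rose by 1.79 with doxorubicin and the fibrillin *FBN1* by 1.26, while *TGFBI* fell by 1.64 and *EDIL3* by 0.91. With nutlin-3 *CCN2* rose by 1.14 and *CCN1* by 0.64, and *LTBP1*, which holds latent TGF-beta in the matrix, fell by 0.41 (adjusted p = 0.023). The *LTBP1* call was lost without DMSO array 1 or 3 or nutlin-3 array 2 or 3. Both *LTBP1* (-0.65) and *CCN2* (-0.43) were called lower in DMSO than in untreated cells.

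**Figure D4:**
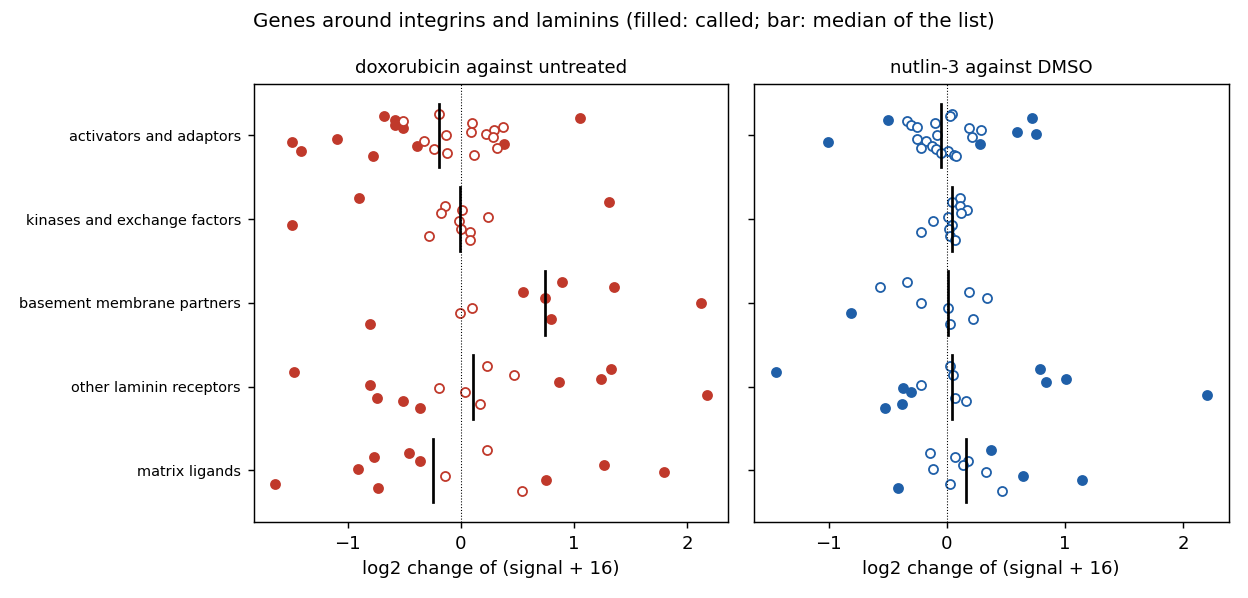
Log2 change of each tested gene of the 5 lists, with doxorubicin (left) and nutlin-3 (right). Each point is a gene, filled where called, and the bar is the median of the list. The basement membrane partners have a median of 0.74 with doxorubicin and 0.01 with nutlin-3, and the kinases and exchange factors have no filled point with nutlin-3.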

How the data were processed

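U2OS RNA was measured on 12 arrays in 4 groups of 3, grouped by the array titles. The deposited series table gives linear signal intensities, 1 for each probe set on each array, made by the authors with MAS5 as the submitters' processing notes name it. Its version is not given in the sources used here. Detection calls were not used. Of 54675 probe sets, 62 controls were left out. The platform annotation gave 41097 probe sets 1 gene, 1801 several and 11777 none, and 13657 of the genes tested carry a current RefSeq symbol.

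Values were turned into log2(value + 16) with the authors' scaling kept. Each gene was read through its single-gene probe set with the highest mean of log2 values, and genes under the 40th percentile of that mean, a signal of 49.3, were not tested. The remaining 13673 genes were fitted in R 4.3.3 with limma 3.58.1 (lmFit and eBayes with an intensity trend): 1 fit of 12 arrays with 4 group means, 8 residual degrees of freedom and no block. P-values were two-sided and adjusted by the Benjamini-Hochberg method over all genes tested. The difference of the responses is the doxorubicin change minus the nutlin-3 change. The fit was tested on simulated data. The number of arrays limits the precision, and no test compared levels between probe sets. Summed marker signals and the words bright and dim describe signals only.

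The members and lists were chosen with earlier results of these data known. All members are named. Array values are given for those called with a log2 change of at least 1, and for *ITGB8*, added after its values were seen. For the lists, up to 2 called genes in each direction are named, those with the largest change. Alternatives were 2 other scalings, pseudocounts of 1 and 64, other filters, other choices of probe set, variance models and thresholds, fits of 6 arrays, a replicate block, single arrays left out and other controls.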

Additional observations from a re-analysis of the deposited data

Results flagged for a closer look

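The responses to doxorubicin and to nutlin-3, each against its own control, differed for 7 of the 28 tested genes by limma's test of the difference at an adjusted p under 0.05, against 39.5% of all genes. The nutlin-3 change was the more positive for *ITGA2* (difference -1.97), *ITGA3* (-1.07) and *LAMB3* (-0.58). For *ITGB8* (-0.50), *LAMA5* (-0.46) and *ITGAE* (-0.41) the doxorubicin change was the more negative. For *LAMB2* (0.45) the doxorubicin change was the higher. Only *ITGA2* and *ITGA3* kept this call under every alternative that was run. *LAMB3* lost it only where doxorubicin was set directly against nutlin-3, which compares levels and not responses. For *ITGA2*, *ITGB8* and *LAMB3* the controls themselves differed (DMSO against untreated -0.63, -1.04 and -0.59).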

How the results depend on the processing

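The threshold of 0.01 is left out of the next counts, which cover the alternatives at an adjusted p under 0.05. Of 33 called changes of members, 17 kept their direction and call in every such alternative. Another 13 lost the call in some and 4 reversed in some (1, *ITGB2* with doxorubicin, did both). Of 79 uncalled changes, 58 stayed uncalled, 20 gained a call in some and 1 reversed. With arrays centred on their medians, 7 members were called with doxorubicin. The difference called 3 at an adjusted p under 0.01, and 13 with doxorubicin set directly against nutlin-3 (chosen after seeing the data). A reversal here is a change of sign where the main value or the new one was called. With doxorubicin *ITGB1* reversed with the mean of all probe sets (-0.40, called) and without _x_at and _s_at sets (-0.49, called). *ITGB2* (-0.01 without those sets) and *ITGB8* (0.20 against DMSO) also reversed with doxorubicin, and neither new value was called. Set directly against nutlin-3, *ITGB8* gave 0.54 (called) and *LAMB3* 0.00 (reversed before rounding, not called). With single arrays left out, the members called ran from 11 to 13 with doxorubicin, 8 to 11 with nutlin-3, 5 to 10 for the difference and 3 to 4 for DMSO. The same replicate numbers did not mark arrays that deviated together (correlations -0.09 to 0.17 for 18 same-numbered pairs, -0.18 to 0.15 for 36 others). With the replicate number as a block, 12, 11, 9 and 4 members were called with doxorubicin, nutlin-3, the difference and DMSO. Of 1050 list counts under the alternatives, 940 stayed within 1.5 times the count in the report. The cause of these shifts was not tested. Genes near the filter have the largest errors.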
